A study of Homo sapiens with 6 samples.

Results

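Expression of 40 genes of the Wnt pathway was followed in HCT116, an established line of human colorectal carcinoma, after overexpression of the H/ACA small nucleolar RNA SNORA28. The 40 genes were listed by function among the 60612 genes of each table and comprise Wnt receptors, the β-catenin destruction complex, TCF/LEF factors, feedback inhibitors and colorectal Wnt targets. RNA sequencing was performed on 3 libraries of cells that received LV-NC, a control lentivirus with a non-targeting sequence, and on 3 libraries of cells that received LV-SNORA28. According to the methods of the study, cells were collected 72 h after infection. Both groups share the HCT116 background, including its mutant CTNNB1 allele. SNORA28 was delivered by virus, outside its host gene, and the labels do not say whether libraries came from separate infections, so p-values measure only the spread between these libraries.

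Wnt signalling controls the stability of β-catenin. Without a Wnt ligand, a destruction complex of AXIN, APC, casein kinase 1α and GSK3β phosphorylates β-catenin and marks it for degradation. When a ligand binds a Frizzled receptor and LRP5 or LRP6, the complex is inhibited through Dishevelled, and β-catenin enters the nucleus and activates TCF/LEF-bound genes. In intestinal crypts the pathway maintains stem cells, and most colorectal cancers activate it through mutation of APC or, as in HCT116, of CTNNB1 itself. Many of its targets, such as AXIN2, RNF43 and NKD1, are inhibitors that feed back on the pathway.

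The sequence that TCF/LEF factors recognise has the core CTTTGA. It reads as TCAAAG when it lies on the opposite strand. Both were searched in the 250 bases before RefSeq gene starts (GRCh38.p14), in the 35116 promoters kept for the search. Of the 40 genes, 27 had at least 1 entry among those kept, which gave 38 promoters. FZD6, FZD7, LRP6, LGR5, AXIN2, NKD1, NOTUM, ZNRF3, ASCL2, MYC, CCND1, PROX1 and TDGF1 had none among those kept. Such an absence does not show that a gene lacks a RefSeq start. The core was found on either strand in 3 promoters (7.89%), those of SP5, DKK1 and PORCN, against 11.2% of all 35116 promoters. A match is a description of the letters and not a binding site, and TCF sites of many targets lie outside this window. SP5, a transcription factor induced by Wnt, and DKK1, a secreted inhibitor of LRP5 and LRP6, held more than 1 copy and are printed 5′ to 3′ because both genes are also members whose level was measured. The SP5 stretch lies at chr2:170715160-170715289 and the DKK1 stretch at chr10:52314102-52314221, both on the plus strand, and capitals mark each copy of the core.
SP5: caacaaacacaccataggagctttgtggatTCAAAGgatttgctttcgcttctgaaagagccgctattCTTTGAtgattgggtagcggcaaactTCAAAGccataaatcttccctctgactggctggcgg
DKK1: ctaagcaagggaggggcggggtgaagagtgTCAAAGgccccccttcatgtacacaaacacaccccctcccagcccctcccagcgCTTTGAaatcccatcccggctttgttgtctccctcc

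In SP5 the 3 copies lie between 147 and 83 bases before the start, and in DKK1 the 2 copies lie 149 and 95 bases before it. The longer motif CTTTGAT, which contains the core, was found once among the member promoters counted, in SP5, and in 2.26% of all promoters searched. Neither gene carried a difference between the groups that exceeded the spread of the libraries. DKK1 was listed at 47.96, 42.72 and 50.79 FPKM (fragments per length of transcript and number of mapped fragments) in the LV-NC libraries, against 44.8, 63.09 and 55.08 FPKM in LV-SNORA28, so the groups overlapped. SP5 measured 0.39, 0.56 and 0.4 FPKM in the LV-NC libraries, against 0.46, 0.53 and 0.64 FPKM in the LV-SNORA28 libraries, again with overlap.

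The libraries were first checked against their labels. SNORA28 was listed at no more than 0.92 FPKM in LV-NC and at no less than 13.66 FPKM in LV-SNORA28. Epithelial markers were abundant, with a summed level of 762 to 850 FPKM in LV-NC and 784 to 830 FPKM in LV-SNORA28 over 7 genes, of which VIL1 was near 0. Of the leukocyte markers, PTPRC, CD3E and LYZ were at most at 0.16 FPKM. CD68, which is also expressed outside leukocytes, had 2.07, 2.06 and 0.95 FPKM in LV-NC, against 2.27, 4.12 and 3.14 FPKM in LV-SNORA28, all of them higher (limma log2 fold change 0.64, adjusted p 0.134), and its part in the results was not tested. Of the fibroblast markers, COL1A1 lay between 3.16 and 4.46 FPKM with overlapping groups, and DCN, LUM and COL1A2 were at 0. The 4 endothelial genes were at most at 0.09 FPKM. Mitochondrially encoded genes took 42.7% to 47.7% of all FPKM in the LV-NC libraries, against 35.9% to 38.3% in LV-SNORA28. FPKM is a share of the library, so this shift touches the value of every other gene. When the libraries were scaled to their nuclear genes, the 2 called members kept their direction and call.

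Most Wnt genes differed little between the groups. Of the 40 genes, 32 had a mean of at least 1 FPKM and were tested, and 8 lay below this filter. Of the 32, CSNK1A1 rose and CCND1 fell at an adjusted p below 0.05 (limma, adjusted over all 12076 genes tested), and 30 did not pass. This is 6.25% of the members, against 8.91% of all genes tested (6.81% higher and 2.10% lower). At an unadjusted p below 0.05 there were 5 members (15.6%), against 28.0% of all genes tested. The median log2 fold change of FPKM + 1 over the 32 was 0.06, against 0.09 for all genes tested, and 21 of 32 lay above 0, against 66.7% of all genes. The groups did not overlap for 8 members (25%), 7 with LV-SNORA28 above and 1 with it below, against 35.1% of all genes tested. The study called genes by a fold change above 1.5 and an unadjusted p below 0.05. None of the 32 reached this threshold, which 3.79% of all genes tested passed in the same fit.

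On the scale of FPKM + 1, the 95% confidence interval lay within a fold change of 1.5 in either direction for 26 of the 32 members. For genes of a few FPKM the same interval is wider in FPKM itself. Its median half-width was 0.23 for the members and 0.23 for all genes tested. The other 6 were the called CCND1 and CSNK1A1, and MYC, APC, TCF7 and TCF7L2, whose libraries differed within a group.

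**Figure D1:**
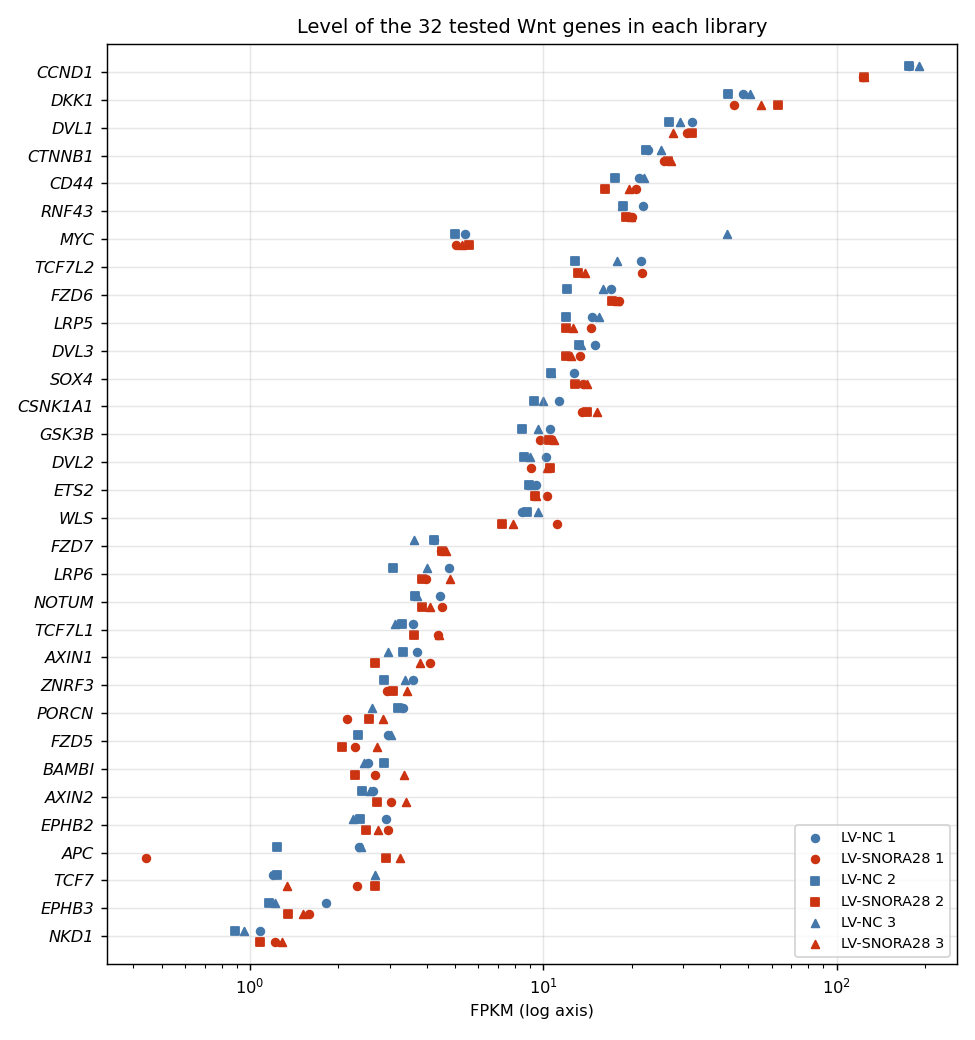
FPKM (log axis) of the 32 tested Wnt genes in the 3 LV-NC libraries (blue) and the 3 LV-SNORA28 libraries (red), ordered by the LV-NC mean; circles, squares and triangles are replicates 1, 2 and 3. Levels of single libraries ran from 0.44 FPKM for APC in LV-SNORA28 replicate 1 to 190.37 FPKM for CCND1 in LV-NC replicate 3. The 2 colours separate clearly for CCND1, while MYC and APC each have 1 library far from the others.

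CCND1 stood highest, at 181 ± 8.11 FPKM (SD, n = 3) in LV-NC, and DKK1 followed at 47.2 ± 4.09 FPKM (SD, n = 3). The 40 genes summed to 503.47, 453.51 and 540.32 FPKM in LV-NC, against 448.45, 447.81 and 451.31 FPKM in LV-SNORA28. Without CCND1 the sums were 327.69, 276.56 and 349.95 FPKM in LV-NC and 325.98, 323.52 and 327.7 FPKM in LV-SNORA28, and the groups overlapped.

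CCND1 (ENSG00000110092; GRCh38 chromosome 11, 69641156 to 69654474, plus strand) encodes cyclin D1, which activates CDK4 and CDK6 in early G1 phase and is a classical target of β-catenin and TCF. It measured 175.78, 176.95 and 190.37 FPKM in the LV-NC libraries, against 122.47, 124.29 and 123.61 FPKM in the LV-SNORA28 libraries. All LV-SNORA28 libraries lay below all LV-NC libraries, and the 3 were close to each other. The mean of LV-SNORA28 was 0.682 of that of LV-NC. The log2 fold change was -0.55 (SE 0.06, 95% confidence interval -0.68 to -0.41), with an adjusted p of 0.00583 in limma. In all 13 alternative fits the log2 fold change stayed between -0.57 and -0.51 and the limma adjusted p between 0.00372 and 0.0358. LTO1, which overlaps CCND1 on the opposite strand, was listed at 0.65 to 1.35 FPKM.

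CSNK1A1 (ENSG00000113712; GRCh38 chromosome 5, 149492982 to 149551471, minus strand) encodes casein kinase 1α, which places the priming phosphate on β-catenin within the destruction complex. It measured 11.32, 9.27 and 9.98 FPKM in the LV-NC libraries, against 13.56, 14.13 and 15.27 FPKM in the LV-SNORA28 libraries. All LV-SNORA28 libraries were higher, with a ratio of means of 1.41. The log2 fold change was 0.46 (SE 0.09, 95% confidence interval 0.25 to 0.67), with an adjusted p of 0.0297 in limma. The call did not hold in 7 of 13 alternative fits, among them those without LV-NC replicate 2 (0.40, limma adjusted p 0.0757), LV-NC replicate 3 (0.44, limma adjusted p 0.0815) or any single LV-SNORA28 replicate (limma adjusted p from 0.0640 to 0.103), while the direction held in all 13. A long noncoding RNA on the same strand within the gene, ENSG00000230551, measured 4.82, 4.31 and 4.33 FPKM in the LV-NC libraries, against 4.44, 5.94 and 6.63 FPKM in the LV-SNORA28 libraries, and the reads of the pair cannot be told apart here. Close copies of CSNK1A1 (CSNK1A1L, CSNK1A1P1 and CSNK1A1P3) were listed at 0.12 FPKM or less.

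**Figure D2:**
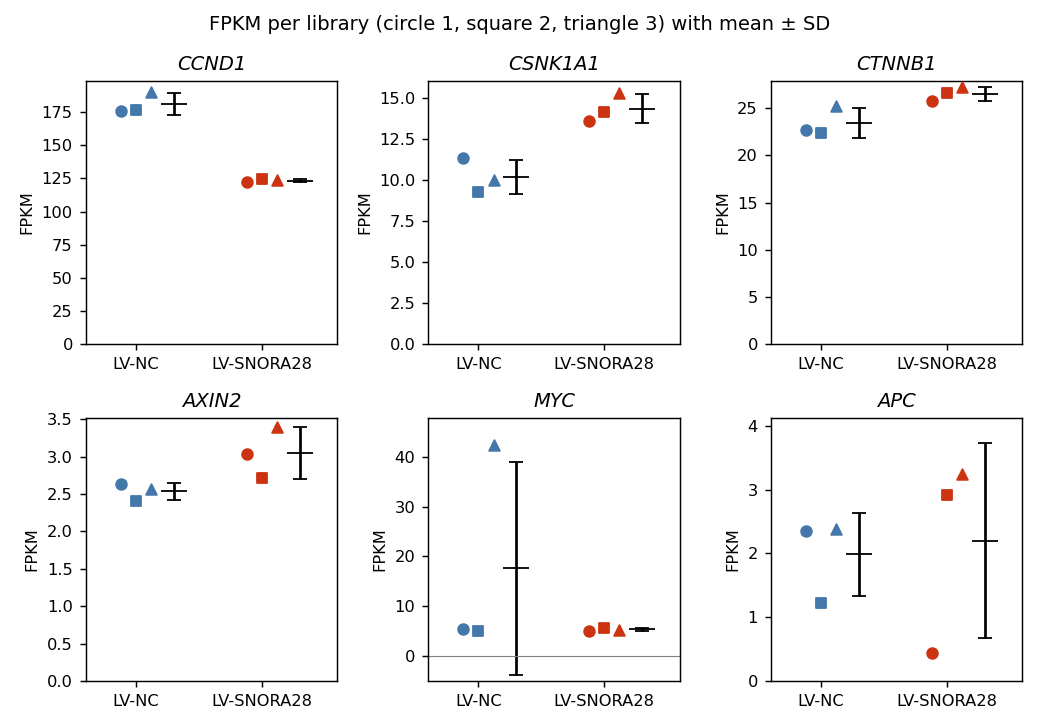
FPKM of 6 Wnt genes in each library of LV-NC (blue) and LV-SNORA28 (red), with the mean and SD of each group of 3 in black. CCND1 and CSNK1A1 separate the groups in opposite directions, CTNNB1 and AXIN2 separate by a small margin, and MYC and APC each have 1 library that sets the group mean.

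The other members of the destruction complex showed no difference larger than the spread. GSK3B, the kinase that completes the phosphorylation of β-catenin, averaged 9.52 ± 1.05 FPKM (SD, n = 3) in the LV-NC libraries, against 10.4 ± 0.554 FPKM (SD, n = 3) in the LV-SNORA28 libraries. The scaffold AXIN1 had 3.32 ± 0.390 FPKM (SD, n = 3) and 3.53 ± 0.758 FPKM (SD, n = 3) in the same order. Their limma adjusted p-values were 0.458 and 0.836. APC (ENSG00000134982), the scaffold lost in most colorectal cancers, measured 2.35, 1.23 and 2.38 FPKM in the LV-NC libraries, against 0.44, 2.91 and 3.25 FPKM in the LV-SNORA28 libraries. LV-SNORA28 replicate 1 alone was low, and the other two were above all LV-NC libraries. The log2 fold change of APC was -0.03 (95% confidence interval -1.05 to 0.99; limma adjusted p 0.975), and without LV-SNORA28 replicate 1 it was 0.47 (limma adjusted p 0.233). A gap of this size between the lowest and the middle LV-SNORA28 library, 6.61 times, was matched or exceeded by 0.439% of all genes tested.

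CTNNB1 (ENSG00000168036; GRCh38 chromosome 3, 41194741 to 41260096, plus strand), the gene of β-catenin, measured 22.73, 22.32 and 25.2 FPKM in the LV-NC libraries, against 25.76, 26.56 and 27.2 FPKM in the LV-SNORA28 libraries. The groups did not overlap, but the margin was small. The difference, as log2 fold change, was 0.17 (SE 0.07, 95% confidence interval 0.01 to 0.33) and did not pass over all genes, with a limma adjusted p of 0.150. Gene-level FPKM does not separate the mutant from the normal allele and gives no measure of β-catenin protein.

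Among the DNA-binding partners of β-catenin, TCF7L2 was the most abundant and LEF1 was nearly absent. TCF7L2, the main intestinal TCF, measured 21.58, 12.86 and 17.87 FPKM in the LV-NC libraries, against 21.74, 13.13 and 13.87 FPKM in the LV-SNORA28 libraries. The groups covered the same range, and the log2 fold change was -0.10 (95% confidence interval -0.67 to 0.47; limma adjusted p 0.821). TCF7L1, which acts mostly as a repressor, measured 3.59, 3.29 and 3.12 FPKM in the LV-NC libraries, against 4.37, 3.62 and 4.42 FPKM in the LV-SNORA28 libraries. All LV-SNORA28 libraries were higher, yet its log2 fold change of 0.24 (SE 0.09) had a limma adjusted p of 0.145. TCF7 ranged from 1.2 to 2.67 FPKM in LV-NC and from 1.34 to 2.66 FPKM in LV-SNORA28, and LEF1 was at most at 0.02 FPKM in any library. None of the 4 tested genes of this group had an adjusted p below 0.05 in limma. Of the 4, 2 (CTNNB1 and TCF7L1, 50%) had an unadjusted p below 0.05, against 28.0% of all genes tested.

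Of the 9 receptors, co-receptors and Dishevelled genes, 8 were tested, and none had an adjusted or an unadjusted p below 0.05 in limma. FZD6, a Frizzled receptor, measured 17, 12.05 and 15.97 FPKM in the LV-NC libraries, against 18.16, 17.11 and 17.75 FPKM in the LV-SNORA28 libraries. FZD7, the Frizzled best known in intestinal stem cells, measured 4.23, 4.25 and 3.63 FPKM in the LV-NC libraries, against 4.49, 4.52 and 4.67 FPKM in the LV-SNORA28 libraries. In both the LV-SNORA28 libraries were the higher ones without overlap, with log2 fold changes of 0.24 (SE 0.12, limma adjusted p 0.271) for FZD6 and 0.14 (SE 0.08, limma adjusted p 0.275) for FZD7. FZD5 had the lowest fold change of the group, at -0.17 (SE 0.11, limma adjusted p 0.369), from 2.76 to 2.34 FPKM in the mean. The co-receptors LRP5 and LRP6 had log2 fold changes of -0.10 and 0.08. Of the Dishevelled genes, which pass the signal from the receptor, DVL1 was the most abundant in LV-NC (29.3 ± 2.62 FPKM, SD, n = 3), followed by DVL3 (13.9 ± 0.992 FPKM, SD, n = 3) and DVL2 (9.28 ± 0.828 FPKM, SD, n = 3). Their log2 fold changes were 0.04, -0.14 and 0.09. The intervals of all 8 genes lay within a fold change of 1.5 of FPKM + 1, which is a looser bound in FPKM for low genes such as FZD5.

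PORCN, the acyltransferase that attaches the lipid Wnt ligands need for secretion, averaged 3.04 ± 0.380 FPKM (SD, n = 3) in the LV-NC libraries, against 2.51 ± 0.351 FPKM (SD, n = 3) in the LV-SNORA28 libraries. WLS, the carrier that takes them to the cell surface, had 8.95 ± 0.572 and 8.72 ± 2.07 FPKM (SD, n = 3). The groups overlapped for both, and the limma adjusted p-values were 0.283 and 0.851.

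The feedback inhibitors are the usual transcriptional readout of the pathway. None of the 7 genes tested in the group listed for them had an adjusted or an unadjusted p below 0.05 in limma. AXIN2 (ENSG00000168646; GRCh38 chromosome 17, 65528563 to 65561648, minus strand), a direct target in most tissues, measured 2.63, 2.41 and 2.57 FPKM in the LV-NC libraries, against 3.03, 2.71 and 3.4 FPKM in the LV-SNORA28 libraries. All LV-SNORA28 libraries were higher, by a small margin. A gene overlapping AXIN2 on the same strand, ENSG00000266076, had 0.49 FPKM in LV-NC replicate 1 and 0.02 FPKM or less elsewhere. The log2 fold change was 0.19 (SE 0.09, 95% confidence interval -0.02 to 0.40), with a limma adjusted p of 0.213, and it was 0.10 after quantile normalization (limma adjusted p 0.460). RNF43, a ubiquitin ligase that removes Frizzled from the membrane, averaged 19.7 ± 1.92 FPKM (SD, n = 3) in the LV-NC libraries, against 19.7 ± 0.454 FPKM (SD, n = 3) in the LV-SNORA28 libraries, with a 95% confidence interval of the log2 fold change from -0.19 to 0.19. Its relative ZNRF3 had 3.27 ± 0.373 and 3.15 ± 0.257 FPKM (SD, n = 3).

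The remaining genes of this group moved as little. NKD1, which binds Dishevelled, had 0.973 ± 0.0971 and 1.19 ± 0.103 FPKM (SD, n = 3), and the highest LV-NC and the lowest LV-SNORA28 library were both at 1.08 FPKM. NOTUM, which removes the lipid from Wnt ligands, had 3.93 ± 0.431 and 4.15 ± 0.329 FPKM (SD, n = 3). BAMBI, listed in this group although it is a decoy receptor of the TGF-β family, had 2.61 ± 0.223 and 2.76 ± 0.542 FPKM (SD, n = 3). Over the 7 tested genes of this group the log2 fold changes ran from -0.04 for ZNRF3 to 0.19 for AXIN2. All 7 intervals lay within a fold change of 1.5 of FPKM + 1, a looser bound in FPKM for low genes such as NKD1. Because these fold changes lie near the shift of all genes, the sign of those for RNF43, NOTUM and BAMBI depended on the scaling, and quantile normalization gave -0.089, -0.033 and -0.036.

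**Figure D3:**
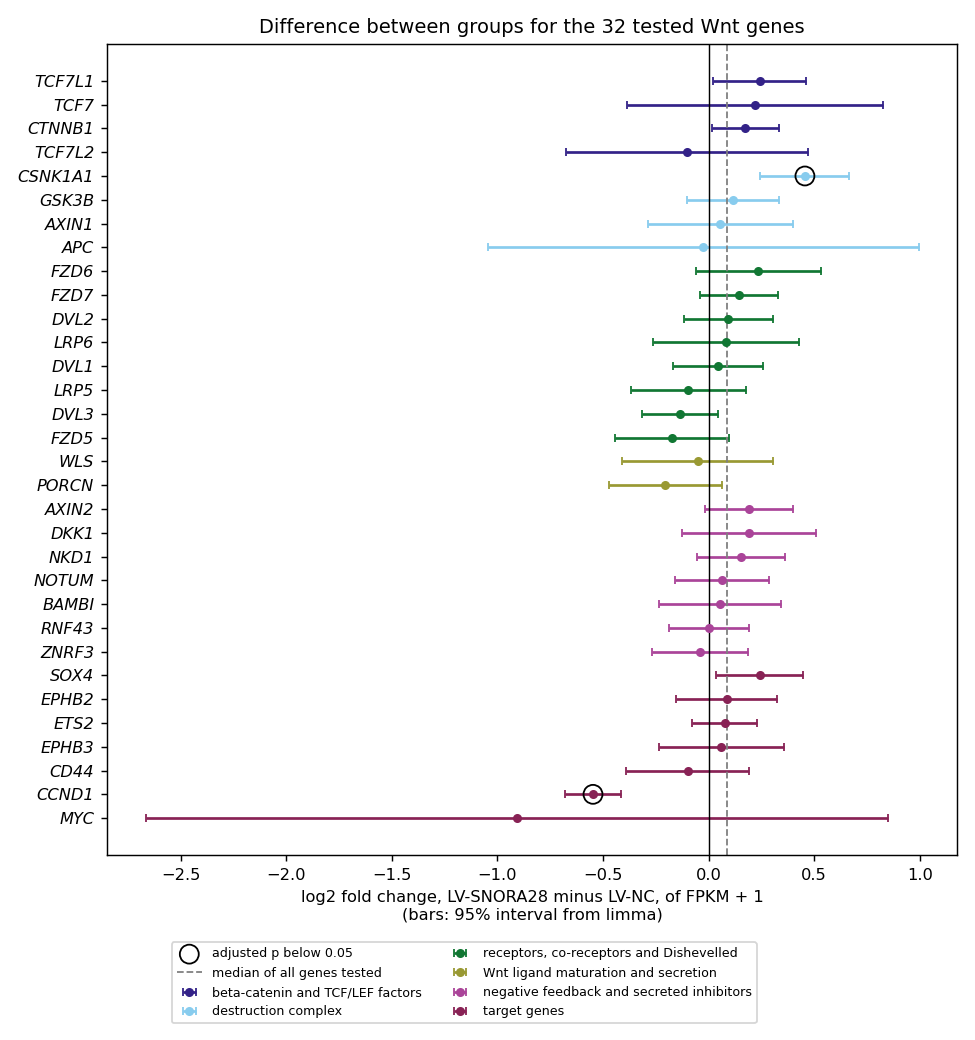
Log2 fold change of FPKM + 1 (LV-SNORA28 minus LV-NC) with its 95% interval for the 32 tested Wnt genes, coloured by role; black circles mark adjusted p below 0.05 in limma, and the dashed line is the median of all genes tested, 0.09. Most points lie close to this line, CSNK1A1 lies above it, CCND1 below it, and the interval of MYC runs from -2.67 to 0.85.

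Of the 12 target genes, 7 were tested, and 1, CCND1, had an adjusted p below 0.05. SOX4 (ENSG00000124766; GRCh38 chromosome 6, 21593751 to 21598619, plus strand), a transcription factor of progenitor cells, measured 12.71, 10.65 and 10.58 FPKM in the LV-NC libraries, against 13.68, 12.85 and 14.03 FPKM in the LV-SNORA28 libraries. The groups did not overlap, and the log2 fold change of 0.24 (SE 0.09) had an unadjusted p of 0.0281 and a limma adjusted p of 0.129. SOX4 and CCND1 thus lay on opposite sides of 0. The surface glycoprotein CD44 had 20.3 ± 2.37 and 18.9 ± 2.38 FPKM (SD, n = 3), and the transcription factor ETS2 had 9.14 ± 0.261 and 9.69 ± 0.514 FPKM (SD, n = 3). The Eph receptors EPHB2 and EPHB3, which position cells along the crypt, had log2 fold changes of 0.09 (SE 0.10) and 0.06 (SE 0.12). The groups overlapped for all of these but SOX4.

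MYC (ENSG00000136997), the growth-promoting transcription factor, measured 5.39, 4.98 and 42.37 FPKM in the LV-NC libraries, against 5.04, 5.59 and 5.29 FPKM in the LV-SNORA28 libraries. LV-NC replicate 3 stood 7.86 times above the next LV-NC library, and the other 5 libraries lay between 4.98 and 5.59 FPKM. A gap as large among the LV-NC libraries was found in 31 of the genes tested (0.257%). The log2 fold change was -0.91 (95% confidence interval -2.67 to 0.85; limma adjusted p 0.468), and without LV-NC replicate 3 it was 0.03 (limma adjusted p 0.863). The mean of LV-NC, 17.6 FPKM, therefore rests on 1 library. CASC11, which overlaps MYC on the opposite strand, was at most at 0.02 FPKM, and MYCL, a relative, was listed at 1.61 to 2.25 FPKM in the 6 libraries.

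The 8 members below the filter ranged from 0 to 0.64 FPKM. LGR5, the receptor for R-spondins that marks intestinal stem cells, measured 0.02, 0 and 0.01 FPKM in the LV-NC libraries, against 0, 0 and 0.02 FPKM in the LV-SNORA28 libraries. ASCL2, the transcription factor that governs the stem cell state, was listed at 0 in all 6 libraries, as were the inhibitor APCDD1 and the Nodal co-receptor TDGF1. PROX1 was at most at 0.01 FPKM. LGR5 and ASCL2 were thus at or near 0 in both groups. TNFRSF19, a receptor of the TNF family, measured 0.06, 0.12 and 0.1 FPKM in the LV-NC libraries, against 0.19, 0.14 and 0.27 FPKM in the LV-SNORA28 libraries. The groups did not overlap, but in the limma fit without a filter its adjusted p was 0.298. Depth was not given, so no limit can be set on what a value of 0 allows.

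The rest of the pathway was examined in 126 other Wnt genes grouped by function. Of these, 78 were tested, and 6 (7.69%) had an adjusted p below 0.05 in limma, all of them higher in LV-SNORA28. This share is near the 8.91% of all genes tested, and the median log2 fold change was 0.09, as for all genes. At an unadjusted p below 0.05 there were 16 of the 78 (20.5%), against 28.0% of all genes tested. The groups did not overlap in 33.3%, near the 35.1% of all genes.

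The 6 genes belonged to several branches. PPP2R5A (ENSG00000066027), a regulatory subunit of the phosphatase PP2A, measured 5.16, 5.91 and 5.83 FPKM in the LV-NC libraries, against 10.95, 11.19 and 12.92 FPKM in the LV-SNORA28 libraries. The log2 fold change of 0.93 (SE 0.09, limma adjusted p 0.00431) was the largest of the 78. RAC1 (ENSG00000136238), a GTPase of the planar polarity branch with many roles outside it, measured 54.04, 55.27 and 54.29 FPKM in the LV-NC libraries, against 75.04, 82.53 and 78.66 FPKM in the LV-SNORA28 libraries. On the log2 scale the difference was 0.52 (SE 0.06, limma adjusted p 0.00665). Both had limma adjusted p-values of at most 0.0358 in all 13 alternative fits.

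The nuclear co-factors BCL9 and TBL1XR1 bind β-catenin and TCF complexes. BCL9 measured 6.06, 5.17 and 5 FPKM in the LV-NC libraries, against 8.05, 7.63 and 7.75 FPKM in the LV-SNORA28 libraries, with a log2 fold change of 0.46 (SE 0.08, limma adjusted p 0.0238). TBL1XR1 measured 5.2, 3.44 and 4.92 FPKM in the LV-NC libraries, against 6.99, 9.27 and 9.98 FPKM in the LV-SNORA28 libraries, with a log2 fold change of 0.82 (SE 0.17, limma adjusted p 0.0361). In both genes all LV-SNORA28 libraries were above all LV-NC libraries. KREMEN1, a receptor for DKK1, measured 4.99, 4.08 and 4.88 FPKM in the LV-NC libraries, against 6.49, 6.1 and 6.78 FPKM in the LV-SNORA28 libraries, with a log2 fold change of 0.40 (SE 0.09, limma adjusted p 0.0404). CUL1, the scaffold of the ubiquitin ligase that marks β-catenin for degradation, measured 17.94, 18.38 and 19.41 FPKM in the LV-NC libraries, against 21.54, 22.54 and 22.84 FPKM in the LV-SNORA28 libraries, with a log2 fold change of 0.25 (SE 0.06, limma adjusted p 0.0499). The calls of these last 4 genes were less stable than those of PPP2R5A and RAC1. Of 13 alternative fits, the call was lost in 6 for BCL9, 7 for TBL1XR1, 10 for KREMEN1 and 12 for CUL1. Among the fits without 1 library, BCL9 lost its call in all but that without LV-NC replicate 1, TBL1XR1 in all but that without LV-SNORA28 replicate 1, and KREMEN1 and CUL1 in all 6, while the log2 fold changes kept their sign.

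**Figure D4:**
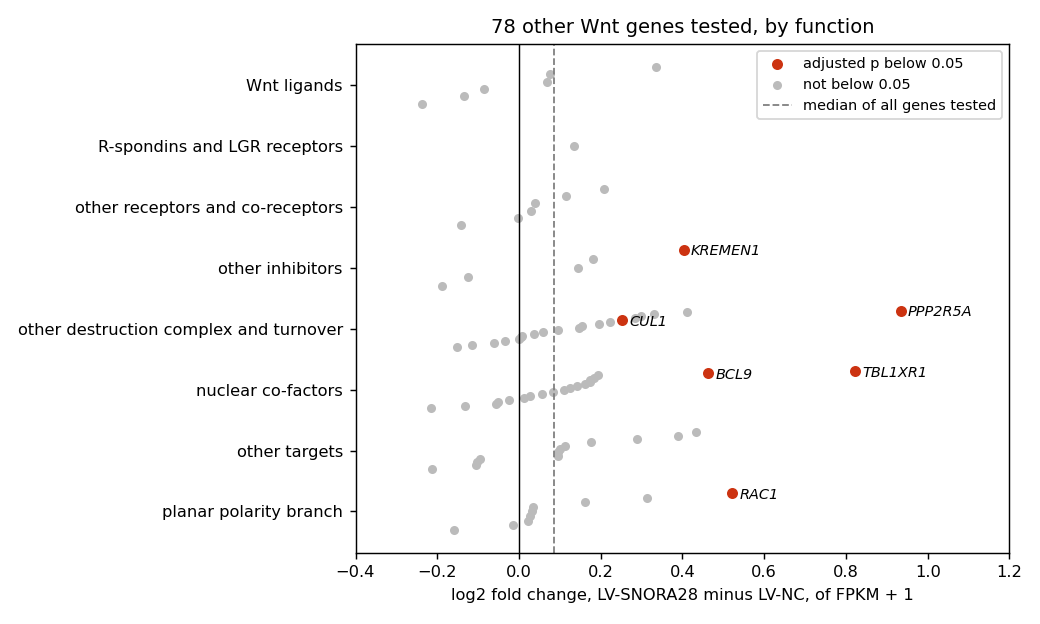
Log2 fold change of FPKM + 1 (LV-SNORA28 minus LV-NC) of the 78 other Wnt genes tested, 1 point per gene, in rows by function; red points have an adjusted p below 0.05 in limma, and the dashed line is the median of all genes tested. The 6 red points lie to the right of 0, with PPP2R5A farthest at 0.93, and none of the tested ligands, R-spondin and LGR genes, other receptors or other targets is red.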

How the data were processed

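The authors deposited 1 table per library with Ensembl identifiers and FPKM values, written with at most 2 decimals. The submitters' processing notes name cutadapt 1.9, HISAT2 2.2.1, StringTie 2.1.6, DESeq2, edgeR and the build hg38, without roles. The annotation release, filters and mapped totals are not given in the sources used here, so depth is unknown and no counting interval is attached. Poly(A) RNA was read as paired ends from dUTP-stranded libraries; whether strand was used in counting is not given. Groups were taken from the sample titles.

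Symbols were matched for 60401 of 60612 identifiers, and loci were taken from GENCODE release 44 (GRCh38). Values were transformed to log2(FPKM + 1), which understates changes of low genes. Genes whose mean reached 1 FPKM, 12076 in all, were fitted in limma 3.58.1 (R 4.3.3; lmFit, eBayes with a trend), and two-sided p-values were adjusted by the Benjamini-Hochberg method over all of them. The fit was tested on simulated data. Promoters came from RefSeq tables and were searched in Python 3.11.15, without a test.

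The members and lists were chosen with earlier results of these data known. Values per library are given for members with an adjusted p below 0.05, the 6 next by p and 8 genes set by role, and for other Wnt genes with an adjusted p below 0.05. DKK1, SP5 and TNFRSF19 were added after their values or promoters were seen. Marker lists covered epithelial cells, fibroblasts (summed level 3.20 to 4.47 FPKM in LV-NC and 3.17 to 4.08 in LV-SNORA28, nearly all COL1A1), leukocytes (1.05 to 2.21 and 2.43 to 4.14, nearly all CD68; 1 listed marker is not reported here) and endothelial cells. Alternatives were quantile normalization, nuclear scaling, a pseudocount of 0.1, no filter, a mean of at least 5 FPKM, no trend, a replicate block, the threshold of the study and each library left out.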

Additional observations from a re-analysis of the deposited data

How the results depend on the processing

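Depth is unknown, so the precision of genes near 1 FPKM rests on the spread of 3 libraries. The 1076 genes called over all genes fell to 397 when all 32761 genes with values were fitted (no filter), to 510 with the replicate block, to 458 at the threshold of the study and to between 278 and 629 with 1 library left out, the lowest without LV-SNORA28 replicate 2. The 822 higher and 254 lower genes became 451 and 375 under quantile normalization. The 2 members called became 1 without a filter, 1 with the replicate block, 0 at the threshold of the study and from 1 to 2 with 1 library left out. The 6 other Wnt genes called became 2, 3, 2 and from 2 to 3 in the same order. Each fit without a library has fewer samples, and otherwise the cause was not tested. Libraries with the same replicate number did not deviate together, since their deviations from the group means correlated across genes at -0.044, 0.091 and 0.0098 for replicates 1, 2 and 3. CCND1, PPP2R5A, RAC1 and SNORA28 kept their direction and call in all 13 alternative fits, but at the threshold of the study CCND1 and RAC1 fell short of a fold change of 1.5, and PPP2R5A and TBL1XR1 were the 2 other Wnt genes that passed.

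No sign change involved a called gene. Quantile normalization gave log2 fold changes below 0 for AXIN1 (-0.044), LRP6 (-0.019), DVL1 (-0.033), DVL2 (-0.0023), NOTUM (-0.033), RNF43 (-0.089), BAMBI (-0.036), EPHB2 (-0.0059), EPHB3 (-0.018) and ETS2 (-0.016), and nuclear scaling for RNF43 (-0.022). With 1 library left out, the log2 fold changes ran from -0.32 to 0.059 for TCF7L2, from -0.31 to 0.47 for APC, from -0.039 to 0.20 for AXIN1, from -0.052 to 0.20 for LRP6, from -0.018 to 0.11 for DVL1, from -0.22 to 0.060 for WLS, from -0.036 to 0.079 for RNF43, from -0.11 to 0.014 for ZNRF3, from -0.056 to 0.15 for BAMBI, from -0.010 to 0.18 for EPHB3, from -0.19 to 0.00067 for CD44 and from -1.40 to 0.028 for MYC. Of 492 alternative values of single genes, 419 kept their direction and side of the threshold, 42 fell short of it and 31 changed sign.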

Other observations

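The Wnt ligands, differed widely in level. WNT16 measured 38.38, 29.81 and 32.63 FPKM in the LV-NC libraries, against 34.45, 35.01 and 36.4 FPKM in the LV-SNORA28 libraries, with a limma log2 fold change of 0.08 (adjusted p 0.655). The other 5 ligands tested, WNT3, WNT3A, WNT7B, WNT9A and WNT10B, lay between 0.94 and 3.12 FPKM in every library. WNT7B was lower in all LV-SNORA28 libraries (2.12, 1.92 and 1.77 FPKM) than in all LV-NC libraries (2.29, 2.47 and 2.63 FPKM), with a log2 fold change of -0.24 and a limma adjusted p of 0.125. Another 12 ligands lay below the filter. RSPO2 and RSPO3 were listed at 0 in all libraries. RSPO1, at 0.09 to 0.32 FPKM with overlapping groups, and RSPO4 lay below the filter. RSPO4 had 0.32, 0.29 and 0.21 FPKM in LV-NC, against 0.4, 0.41 and 0.45 FPKM in LV-SNORA28 (adjusted p 0.327 in limma without a filter). LGR4, the R-spondin receptor other than LGR5 and LGR6, was listed at about 1 FPKM. It was higher in all LV-SNORA28 libraries than in all LV-NC libraries, with a limma log2 fold change of 0.13 (adjusted p 0.373). These genes were named after their values were seen.

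Genes that act with cyclin D1 or with PP2A were examined after the results for CCND1 and PPP2R5A were known. CDK4 had a limma log2 fold change of 0.12, CDK6 of -0.22 and CCND3 of 0.31, none with an adjusted or an unadjusted p below 0.05. The groups overlapped for all 3, and CCND2 was at most at 0.04 FPKM. CDK2 measured 7.18, 7.86 and 8.11 FPKM in the LV-NC libraries, against 11.74, 11.65 and 12.22 FPKM in the LV-SNORA28 libraries, with a limma log2 fold change of 0.56 (adjusted p 0.00880). CDKN1A, a cyclin-dependent kinase inhibitor, measured 43.96, 41.54 and 42.01 FPKM in the LV-NC libraries, against 146.22, 152.71 and 45.2 FPKM in the LV-SNORA28 libraries, where replicate 3 stood close to the controls (limma adjusted p 0.134). Of the 6 partners of the G1 to S transition tested, CDK2 passed (16.7%, against 8.91% of all genes tested). CCNE1, CCNE2, CDKN1A, CDKN1B and RB1 had limma adjusted p-values from 0.0760 to 0.254. The groups did not overlap for all 6 (100%, against 35.1% of all genes tested), 5 with LV-SNORA28 higher and 1, CDKN1B, with it lower. At an unadjusted p below 0.05 in limma there were 5 (83.3%, against 28.0% of all genes tested), and this short list was not tested as a set. Of 6 other PP2A subunits tested, PPP2R5C passed (limma log2 fold change 0.29, adjusted p 0.0438), which is 16.7%, against 8.91% of all genes tested. PPP2R5B, PPP2R5D, PPP2R5E, PPP2R1B and PPP2CB had limma log2 fold changes of 0.16, 0.20, 0.24, 0.04 and 0.13 with adjusted p-values from 0.0829 to 0.830. Over the 6 PP2A subunits, the groups did not overlap for 2 (33.3%, against 35.1% of all genes tested). An unadjusted p below 0.05 in limma was found for 2 of them (33.3%, against 28.0% of all genes tested).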
